A study of Mus musculus with 54 samples.

Results

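A diet with corylin was compared with a control diet in the liver of old female mice, gene by gene, over all expressed genes. The comparison rests on 6 of the 54 samples of the series: 3 livers of females given corylin and 3 livers of females on the control diet. All 6 mice were C57BL/6J, an inbred laboratory strain with no engineered allele named in the labels, and all were 130 weeks old. They are called corylin females and old females here, each numbered 1 to 3 as in the labels. Livers of 3 younger females of the same strain, 50 weeks old, served as an age reference. They are called young females, although mice of this age are adults. Their library names carry the letters SD (YSD), like those of the control-diet old females (OSD). Male livers, 50 or 130 weeks old, were in the same fit and so entered its filter, scaling and estimate of spread. Beyond that, male livers served only to ask whether the effect differed by sex. The kidney and quadriceps of the same females were used only to ask whether it differed by tissue. Corylin is a flavonoid of the plant Psoralea corylifolia. Its dose, the start and the length of feeding are not given in the labels. Poly(A) RNA was sequenced as stranded paired-end libraries, 1 per liver.

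The liver makes most of the proteins of blood plasma. In an acute phase response, cytokines such as interleukin 6 act on hepatocytes through the transcription factor STAT3 and raise fibrinogen, serum amyloid A, haptoglobin and orosomucoid. Secreted proteins are folded in the endoplasmic reticulum by chaperones, whose genes are induced by the unfolded protein response through XBP1, ATF6 and ATF4. Hepatocytes also clear drugs and dietary compounds with cytochrome P450 enzymes and conjugating enzymes. The expression of many of these enzymes differs between the sexes in mice.

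Total counts were 12791351 to 16610500 for the 9 female livers, and 15158 genes had enough counts to be tested. Levels are given as CPM, the count of a gene relative to the total of its library, scaled by TMM, and 3 values in a row are replicates 1, 2 and 3. Differences are log2 fold changes ± SE, corylin minus old unless stated, from edgeR's quasi-likelihood test, and adjusted p-values are Benjamini-Hochberg over all 15158 genes, with 0.05 as the threshold. Xist, transcribed from the inactive X chromosome, was at 374, 425 and 417 CPM in old females and 498, 523 and 469 in corylin females, and Kdm5d of the Y chromosome was at 0 in all 9 female livers, as the sex labels state. Albumin (Alb), the defining product of hepatocytes, was at 77615, 87627 and 54574 CPM in old females and 60789.6, 59127 and 60209.5 in corylin females. Old female 3 stood apart from old females 1 and 2 on the second principal component of the 9 female livers, which held 21.9% of the variance. It scored 7.3, against -35.5 and -56.3 for the other old females. Corylin females scored 18.6, 21.1 and 65.1, so corylin female 3 also lay apart from corylin females 1 and 2. Old female 3 and corylin female 3 also carry the letter R in their library names and the other 4 of the 6 the letter B, whose meaning the labels do not give. Results that change with old female 3 are therefore given with and without it. Of the 6 fits that left out 1 library, the fit without old female 3 called the most genes, 543. The fit without corylin female 3 called 0. Adjusted p-values given without old female 3 thus come from the omission with the most calls. Nothing in the labels says more about the animals than their number, so p-values rest on the spread between libraries. In the liver fit this spread was estimated over all 17 liver libraries, male livers included.

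In corylin females, 10 genes rose and 13 fell, 23 in all, which is 0.152% of the genes tested, 0.0660% higher and 0.0858% lower. Among the 13 were plasma protein genes (both kininogens, fetuin B and an alpha-1-antitrypsin paralog), and the liver enzyme tyrosine aminotransferase. Among the 10 were genes for detoxifying enzymes (Cyp2b13, Ces2e, Mgst3) and for receptors (Tlr5, Paqr7). For all 23, no corylin value overlapped an old value. Without the threshold on many genes, 1194 genes (7.88%) were higher and 1195 (7.88%) lower at an unadjusted p under 0.05, and 1519 (10%) were higher and 1262 (8.33%) lower with no overlap between groups. The median difference over all genes was 0.03 (log2). These shares are the background for all counts of list members that follow: 7.88% in each direction at an unadjusted p under 0.05, and 10% higher or 8.33% lower without overlap.

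**Figure D1:**
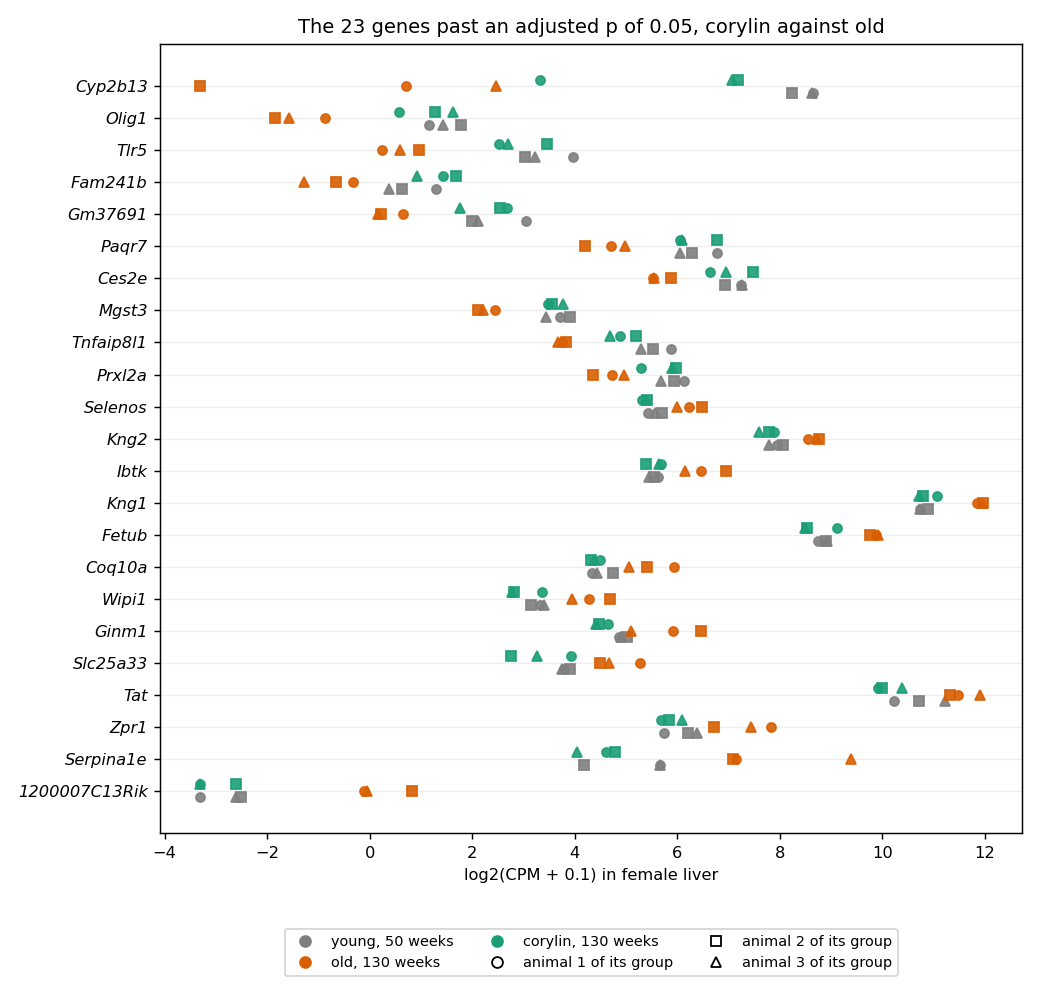
Level of the 23 genes with an adjusted p under 0.05 in each female liver library. Each row is a gene, the horizontal axis is log2(CPM + 0.1), colours stand for groups and marker shapes for replicates. Corylin libraries lie on 1 side of the old libraries in every row, and the 3 young libraries are drawn for reference.

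The 23 calls depended on which libraries entered. The direction of the 23 could not reverse in the 6 fits that left out 1 library, because no corylin value overlapped an old value. Without old female 3, edgeR called 139 genes higher (0.917%) and 404 lower (2.67%), and all 23 were among them. Without corylin female 1, 78 genes passed, 19 of the 23 among them. Without corylin female 2, 18 genes passed, 2 of the 23 among them. Without corylin female 3 no gene passed in edgeR (1858 at an unadjusted p under 0.05), without old female 1 only 6 passed and without old female 2 only 1, with 1 of the 23 kept in each of the last 2 fits. DESeq2 called 240 genes higher (1.58%) and 328 lower (2.16%), all 23 included. By the authors' deposited comparison, 572 genes had an adjusted p under 0.05, 238 higher and 334 lower, and these also held all 23.

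**Figure D2:**
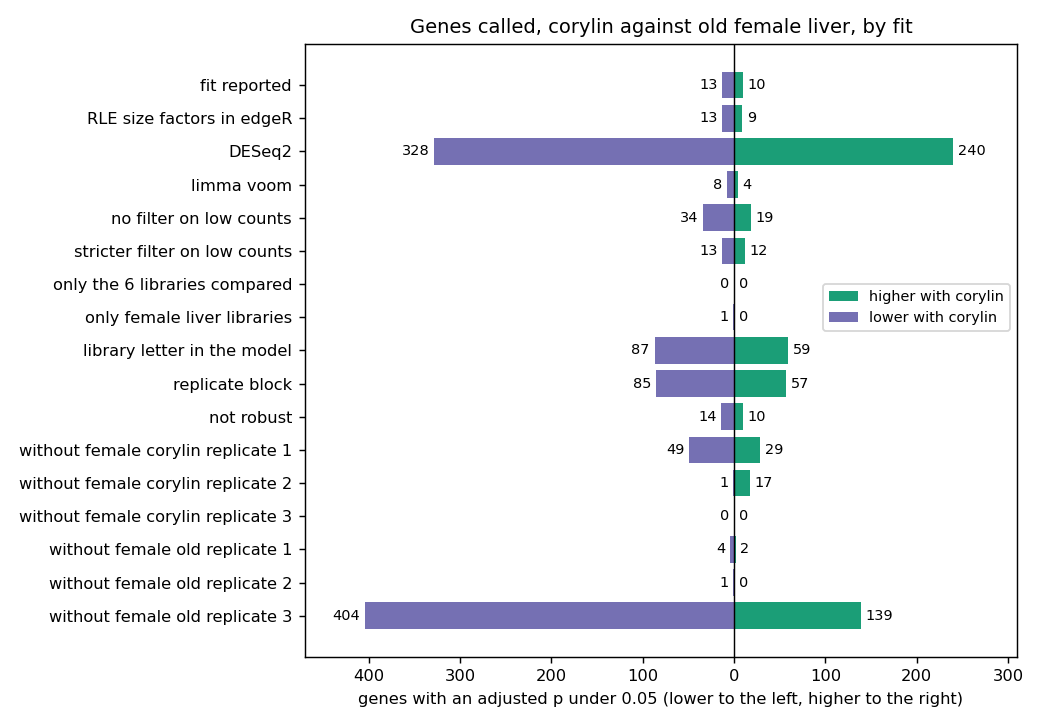
Genes with an adjusted p under 0.05 for corylin against old female liver, by fit. Bars to the right count genes that were higher with corylin, bars to the left genes that were lower. The count ran from 0 without corylin female 3, or with only the 6 libraries in the fit, to 543 without old female 3 and 568 with DESeq2.

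Kininogens are plasma precursors of bradykinin and cofactors of the contact pathway of coagulation. Kng1 (ENSMUSG00000022875, GRCm38 chromosome 16, 23057865 to 23082078, forward strand) was at 3657, 4003 and 3943 CPM in old females and 2154, 1763 and 1688 in corylin females. It fell by 1.05 ± 0.17 on the log2 scale (edgeR adjusted p = 0.0319), and young females had 1701, 1886 and 1697 CPM. Kng2 (ENSMUSG00000060459, GRCm38 chromosome 16, 22985854 to 23029482, reverse strand) was at 373, 434 and 422 CPM in old and 235, 221 and 192 in corylin females and fell by 0.92 ± 0.15 (edgeR adjusted p = 0.0319). Its young values were 246, 268 and 221. Fetub encodes fetuin B, a plasma protein of the cystatin superfamily, and lies near the kininogens (GRCm38 chromosome 16, 22918334 to 22939778, forward strand). It was at 936, 863 and 969 CPM in old and 556, 367 and 357 in corylin females, a fall of 1.11 ± 0.18 (edgeR adjusted p = 0.0319), and at 426, 476 and 487 in young females. For these 3 genes the 3 old libraries were close to each other, old female 3 included. Of the 100-base stretches in Kng1 transcripts, 4.9% also occur in Kng2 transcripts.

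Serpina1e, 1 of the mouse paralogs of alpha-1-antitrypsin, an inhibitor of neutrophil elastase, lies at GRCm38 chromosome 12, 103946931 to 103958975, reverse strand. Its level was 142, 136 and 665 CPM in old females and 24.3, 27.6 and 16.4 in corylin females, a fall of 3.79 ± 0.66 (edgeR adjusted p = 0.0459), and 50.8, 17.9 and 50.2 in young females. Old female 3 held more than the other old females, and the adjusted p without it was 0.012 in edgeR. The paralog Serpina1a, expressed far more highly, was at 1872, 2121 and 1894 CPM in old and 1668, 1574 and 1229 in corylin females, a difference of -0.40 ± 0.18 that did not pass (edgeR adjusted p = 0.297). Serpina1e shares 14.4% of its 100-base stretches with paralogs, and how the counting treated reads that map to several genes is not given.

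Tyrosine aminotransferase (Tat, GRCm38 chromosome 8, 109990437 to 109999803, forward strand) starts the breakdown of tyrosine and is a classic target of glucocorticoids. Its level was 2827, 2558 and 3843 CPM in old females against 965, 1017 and 1325 in corylin females, a fall of 1.48 ± 0.27 (edgeR adjusted p = 0.0459). Young females were at 1203, 1683 and 2394 CPM, young female 1 within the corylin range and the others between both groups.

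Several of the genes that fell act within the cell. Selenos encodes selenoprotein S, a membrane protein of the endoplasmic reticulum that takes part in disposing of misfolded proteins (GRCm38 chromosome 7, 66079649 to 66089405, forward strand). It was at 74.4, 89.6 and 63.3 CPM in old females and 39.7, 42.6 and 41.7 in corylin females, a fall of 0.87 ± 0.13 (edgeR adjusted p = 0.0319), with 42.7, 51.6 and 47.5 in young females. Zpr1, a zinc finger protein that binds a translation elongation factor (GRCm38 chromosome 9, 46273064 to 46282643, forward strand), was at 227, 105 and 173 CPM in old and 51, 57.2 and 67.8 in corylin females, a fall of 1.52 ± 0.24 (edgeR adjusted p = 0.0319). Zpr1 was also the gene that still passed without old female 2. Wipi1, which marks membranes where autophagosomes form (GRCm38 chromosome 11, 109573331 to 109611967, reverse strand), was at 19.4, 25.8 and 15.2 CPM in old females and 10.1, 6.94 and 6.77 in corylin females and fell by 1.34 ± 0.22 (edgeR adjusted p = 0.0319). In mitochondria, Slc25a33 carries pyrimidine nucleotides and Coq10a binds coenzyme Q. Slc25a33 was at 38.4, 22.5 and 25.4 CPM in old and 15, 6.69 and 9.48 in corylin females (fall of 1.47 ± 0.26, edgeR adjusted p = 0.0459). Coq10a was at 61.1, 42.2 and 33.2 CPM in old and 22.5, 19.7 and 20.6 in corylin females (fall of 1.12 ± 0.20, edgeR adjusted p = 0.0459). The other named genes that fell were Ibtk, an inhibitor of Bruton tyrosine kinase, by 0.98 ± 0.18 (edgeR adjusted p = 0.0459) and Ginm1, a membrane glycoprotein, by 1.41 ± 0.23 (edgeR adjusted p = 0.0319). The thirteenth was a transcript with no assigned name.

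Among the genes that rose, Cyp2b13 is a cytochrome P450 known for its expression in female mouse liver (GRCm38 chromosome 7, 26061497 to 26096197, forward strand). It was at 1.52, 0 and 5.4 CPM in old females and 9.82, 146 and 134 in corylin females, a rise of 5.37 ± 0.96 (edgeR adjusted p = 0.0459), and at 402, 303 and 395 CPM in young females. Corylin female 1 was far below corylin females 2 and 3. The closely related Cyp2b9, also a female-biased enzyme, followed the same order, at 1.9, 0 and 40.8 CPM in old and 187, 524 and 369 in corylin females, a difference of 4.66 ± 1.15 that did not pass (edgeR adjusted p = 0.0974) with old female 3 and passed without it (edgeR adjusted p = 0.00241). These genes share 1.2% of their 100-base stretches. Cyp2b10, the paralog that is induced by phenobarbital, was at 12.5, 2.12 and 41.4 CPM in old and 10.3, 15.4 and 33.6 in corylin females, so the groups overlapped. The whole list of 29 female-biased liver genes did not share the rise of Cyp2b13 and had a median of -0.04. At an unadjusted p under 0.05, 3 were higher and 4 lower. Without overlap, 3 were higher (10% of all genes) and 8 lower (8.33%).

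Ces2e, a carboxylesterase that hydrolyses esters and amides (GRCm38 chromosome 8, 104926260 to 104934672, forward strand), was at 46.1, 58.6 and 46.7 CPM in old and 99.8, 178 and 124 in corylin females, a rise of 1.41 ± 0.23 (edgeR adjusted p = 0.0319). Young females had 150.4, 121 and 153 CPM. Mgst3, a microsomal glutathione transferase (GRCm38 chromosome 1, 167371966 to 167393841, reverse strand), rose by 1.35 ± 0.23 (edgeR adjusted p = 0.0319), from 5.33, 4.23 and 4.54 CPM in old to 11, 11.6 and 13.6 in corylin females. Prxl2a, a redox protein of the peroxiredoxin-like family, rose by 1.05 ± 0.19 (edgeR adjusted p = 0.0459), from 26.2, 20.4 and 31 to 39.1, 62.8 and 59.3 CPM, and was the call that was lost with DESeq2's size factors in edgeR.

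Tlr5, the receptor for bacterial flagellin (GRCm38 chromosome 1, 182954788 to 182976044, forward strand), was low in every liver, at 1.08, 1.85 and 1.41 CPM in old females and 5.64, 10.9 and 6.34 in corylin females, a rise of 2.41 ± 0.40 (edgeR adjusted p = 0.0319). The young level was 15.4, 8.1 and 9.26 CPM. Paqr7, a membrane receptor for progesterone (GRCm38 chromosome 4, 134496697 to 134510235, forward strand), rose by 1.68 ± 0.28 (edgeR adjusted p = 0.0319), from 26.1, 18.3 and 31.4 CPM in old to 66.6, 109 and 67.9 in corylin females. Tnfaip8l1, of a family of lipid-binding regulators of cell death, rose by 1.19 ± 0.20 (edgeR adjusted p = 0.0319), from 13.4, 14 and 12.7 to 29.5, 36.5 and 25.6 CPM, and young females lay higher still at 58.6, 46 and 39. Olig1, a transcription factor known from oligodendrocytes, had the smallest p and very few counts: 0.444, 0.176 and 0.235 CPM in old and 1.39, 2.31 and 2.99 in corylin females, a rise of 2.87 ± 0.40 (edgeR adjusted p = 0.0319). Fam241b was as low, at 0.698, 0.529 and 0.313 CPM in old and 2.6, 3.09 and 1.78 in corylin females, and rose by 2.24 ± 0.37 (edgeR adjusted p = 0.0319). The tenth was a predicted gene.

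Just outside the threshold came Ighg2c, an immunoglobulin heavy chain constant region, at 21.9, 115 and 5.94 CPM in old and 0.38, 1.35 and 0.499 in corylin females (-5.98 ± 1.09, edgeR adjusted p = 0.0507). Cep250, a centrosome protein, was at 12.2, 9.97 and 11.2 and 18.2, 16.8 and 21.2 CPM (0.75 ± 0.14, edgeR adjusted p = 0.0507). Slc5a1, a sodium-glucose cotransporter, was at 6.54, 9.09 and 4.38 and 1.58, 1.41 and 2.07 CPM (-1.98 ± 0.37, edgeR adjusted p = 0.0531). Next in order of p were Fgg, Prps2, Degs1, Tmem45b, Yrdc, Arl15 and Fgb, with adjusted p-values from 0.0531 to 0.0609 in edgeR. Their values did not overlap between groups, so the threshold of 0.05 divides a continuous series of genes. At a threshold of 0.1, 255 genes passed, 105 higher and 150 lower.

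Acute phase proteins had lower values in corylin females as a group. Of 24 genes of the list, 24 were tested, none passed, and 17 had an unadjusted p under 0.05 in the lower direction and none in the higher, against 7.88% of all genes in each direction. Their median difference was -1.46 (log2), against 0.03 for all genes, and 12 of the 24 had corylin values entirely below the old values, against 8.33% of all genes. Without old female 3, 9 of the 24 fell, against 2.67% of all genes, and the median was -1.41. In the other fits that left out 1 library, 3 fell without corylin female 1 (0.323% of all genes), 1 fell without old female 1 (0.0264%) and none in the rest, with medians between -1.74 and -1.24. When the letters B and R entered the model of all libraries, 7 of the 24 fell, against 0.574% of all genes, and DESeq2 called 14 lower, against 2.16%. The summed level of the list was 59744, 106200.3 and 89008 CPM in old females, 38761, 34851 and 23956 in corylin females, and 33390.2, 24177 and 24384 in young females. The 20 most abundant genes of each library took 28.2, 30.77 and 25.96% of its counts in old females and 24.72, 24.02 and 23.59% in corylin females, and the part of this share in the values was not tested beyond the scalings of edgeR and DESeq2.

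The 3 chains of fibrinogen, the clot protein, carried much of that sum. The gamma chain, Fgg (GRCm38 chromosome 3, 83007724 to 83015049, forward strand), was at 4519, 10028 and 4679 CPM in old and 2026, 1950.3 and 1507 in corylin females (-1.81 ± 0.34, edgeR adjusted p = 0.0531, and 0.0109 without old female 3). The beta chain, Fgb (GRCm38 chromosome 3, 83040141 to 83049863, reverse strand), was at 6233, 13799.7 and 6208 CPM in old and 2683, 2514 and 2135 in corylin females (-1.84 ± 0.36, edgeR adjusted p = 0.0609, and 0.012 without old female 3). The alpha chain, Fga, was at 6633, 16174 and 6548 and 2837, 3053 and 2488 CPM (-1.81 ± 0.37, edgeR adjusted p = 0.0679, and 0.012 without old female 3). Old female 2 was highest for all 3 chains, and the groups did not overlap. Rodent fibrinogen promoters are known to hold interleukin 6 response elements with the core CTGGGAA, which STAT3 binds. These letters, on either strand, occurred in 5 of the 20 acute phase genes with a RefSeq promoter (25.0%) and in 3430 of 27025 genes in all (12.7%), Fgb and Fgg among the 5. The Fgb promoter is shown because it is the fibrinogen window with the core farther upstream, 91 bases before the start, with the core in capitals, 5′ to 3′ on the gene's strand, from 250 bases before to 50 after the start on GRCm38.p6.
Fgb, chr3:83049814-83050113, reverse strand: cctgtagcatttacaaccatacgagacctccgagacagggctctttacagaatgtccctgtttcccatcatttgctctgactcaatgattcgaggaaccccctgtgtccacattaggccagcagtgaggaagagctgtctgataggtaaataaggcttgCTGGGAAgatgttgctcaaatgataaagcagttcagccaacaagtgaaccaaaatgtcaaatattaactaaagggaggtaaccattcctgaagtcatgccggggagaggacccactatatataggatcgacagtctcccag
A match describes the letters and says nothing of binding in these livers.

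Orosomucoid 1 (Orm1), a lipid-carrying plasma glycoprotein, was at 1288, 2834 and 3606 CPM in old females, 791, 850.2 and 580 in corylin females and 622, 392 and 339 in young females (-1.80 ± 0.37, edgeR adjusted p = 0.0679, and 0.0426 without old female 3). Lbp, which delivers bacterial lipopolysaccharide to CD14, was at 185, 259 and 263 CPM in old and 125, 148 and 108 in corylin females (-0.89 ± 0.18, edgeR adjusted p = 0.0679). For Orm1 and Lbp old females 2 and 3 were highest, and no corylin value reached an old value. Serum amyloid A1 (Saa1) rested on a single library: it was at 103, 379.9 and 6899.9 CPM in old females, highest in old female 3, and at 60.4, 161 and 47.2 in corylin females, which overlapped old female 1 (-4.78 ± 1.77, edgeR adjusted p = 0.208, and 0.648 without old female 3). Lcn2, the siderophore-binding lipocalin 2, had 220.3, 1150.2 and 1653 CPM in old and 99.9, 302 and 113 in corylin females, also overlapping (-2.55 ± 1.18, edgeR adjusted p = 0.313). Saa1 and Lcn2 were also high in young female 1, at 919.6, 18.6 and 11.9 and 286, 12.3 and 22.5 CPM in the 3 young females.

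Among 12 genes that carry the cytokine signal to the hepatocyte, none passed, and 6 had an unadjusted p under 0.05 in the lower direction (7.88% of all genes). The median of the list was -0.50. Socs3, a feedback inhibitor that STAT3 induces, was at 49.8, 60.3 and 31.3 CPM in old and 15.7, 10.5 and 14.7 in corylin females (-1.79 ± 0.39, edgeR adjusted p = 0.0703). Stat3 itself was at 228, 288 and 218 and 178, 165 and 136 CPM (-0.62 ± 0.19, edgeR adjusted p = 0.134), and Il6st, the shared signal chain of the interleukin 6 receptors, at 259, 266 and 157 and 172, 147 and 129.6 (-0.60 ± 0.20, edgeR adjusted p = 0.166). Socs3 and Stat3 did not overlap between groups, and Il6st overlapped through old female 3.

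**Figure D3:**
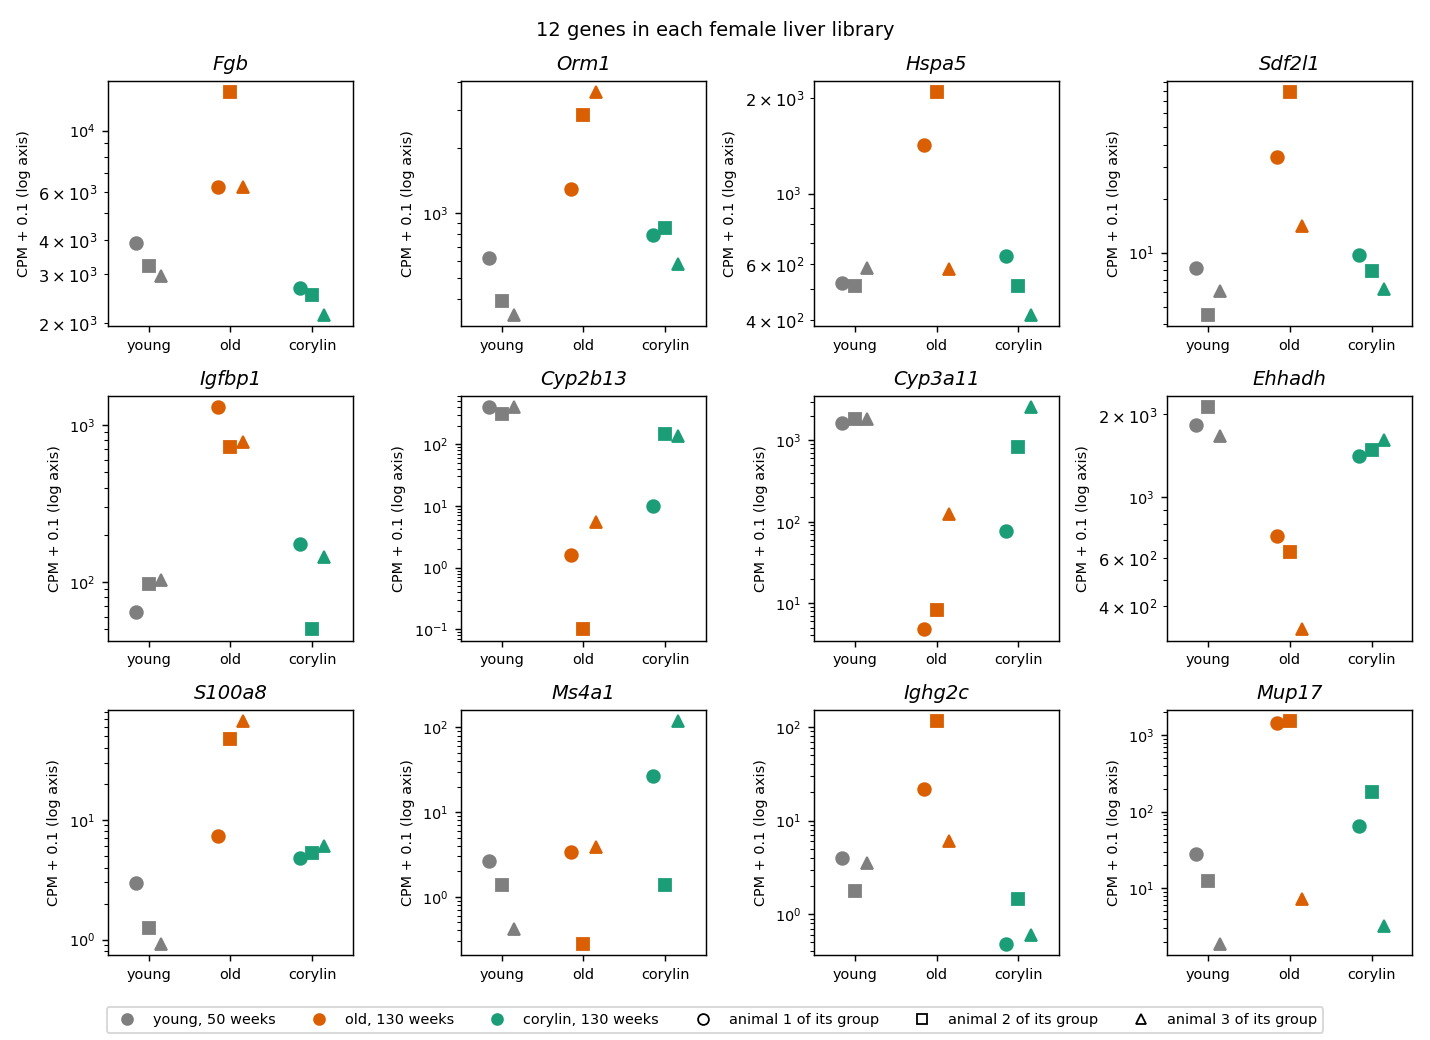
CPM plus 0.1 on a log axis for 12 genes in each female liver library, with groups along the horizontal axis and marker shapes for replicates. Fgb and Orm1 lie lower in all corylin than in all old females, Hspa5 overlaps through old female 3, and Ms4a1 is high in corylin females 1 and 3 but not in corylin female 2.

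Complement and coagulation factors made by the liver had a smaller difference in the same direction. Of 24 listed genes, 23 were tested, 1 fell (Kng1, described above), and 13 had an unadjusted p under 0.05 in the lower direction and none in the higher, against 7.88% of all genes each. The median was -0.52. There were 5 that fell without old female 3 (2.67% of all genes), 6 without corylin female 1 (0.323%), and none without any 1 of the other 4 libraries. Complement factor I (Cfi), a protease that inactivates C3b and C4b, was at 997, 985 and 889.8 CPM in old and 722, 539.8 and 485 in corylin females (-0.72 ± 0.15, edgeR adjusted p = 0.0679). Plasminogen (Plg), which dissolves clots once activated, was at 2999, 3024 and 2868 and 1985, 1599.6 and 1339 CPM (-0.85 ± 0.19, edgeR adjusted p = 0.0729). C3, the central complement protein, was at 15435, 22259.5 and 17559 and 12619, 12002 and 9344 CPM (-0.70 ± 0.22, edgeR adjusted p = 0.141). All of these had lower values in each corylin female than in each old female, and their adjusted p-values without old female 3 were 0.0193, 0.039 and 0.101 in edgeR. Hepatocyte markers, which in this list are mostly secreted proteins, had a median of -0.35, with 5 of 12 at an unadjusted p under 0.05 in the lower direction. Ahsg, which encodes fetuin A, was at 16266, 19339 and 10467 CPM in old and 9549, 7249 and 6909 in corylin females (-0.96 ± 0.24, edgeR adjusted p = 0.0974), and transferrin (Trf), the iron carrier, at 20781, 27399 and 19642 and 15363, 14477 and 10970.5 (-0.73 ± 0.21, edgeR adjusted p = 0.119). In a bulk sample, fewer cells of a type and less RNA per cell cannot be told apart.

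Chaperones of the endoplasmic reticulum had lower values in corylin females than in old females 1 and 2, with old female 3 close to the corylin range. All 20 listed genes were tested and none passed with all libraries, although 18 of 20 had an unadjusted p under 0.05 in the lower direction and none in the higher (7.88% of all genes each), with a median of -0.98. Without old female 3, 17 of the 20 fell, against 2.67% of all genes, and the median was -1.29. In the other 5 fits that left out 1 library none passed, and the medians ran up to -0.75. On all libraries, DESeq2 called 14 of the 20 lower (2.16% of all genes), and edgeR with the letters B and R as a term called 7 lower (0.574%). The summed level of the list was 8010.3, 11863 and 5339.8 CPM in old females, 4981, 5044 and 4197 in corylin females, and 5379, 4988 and 5323 in young females.

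Mouse promoters of such genes are known to carry an endoplasmic reticulum stress element, CCAAT and CCACG with 9 bases of any kind between them, to which NF-Y and ATF6 bind. RefSeq promoters on GRCm38.p6, from 250 bases before to 50 bases after each gene's start, were searched for these letters on both strands. They occurred in 7 of the 16 chaperone genes with a promoter entry (43.8%) and in 37 of 27025 genes in all (0.137%), and in none of the 20 acute phase, 16 complement and 20 translocation genes with an entry. The match describes the sequence and says nothing of binding in these livers. The promoters of 5 chaperone genes that carry it are shown here because these genes are described next, 5′ to 3′ on the gene's strand, with the fixed letters of the element in capitals (as CGTGG and ATTGG where the match is on the other strand).
Hspa5, chr2:34771840-34772139, forward strand: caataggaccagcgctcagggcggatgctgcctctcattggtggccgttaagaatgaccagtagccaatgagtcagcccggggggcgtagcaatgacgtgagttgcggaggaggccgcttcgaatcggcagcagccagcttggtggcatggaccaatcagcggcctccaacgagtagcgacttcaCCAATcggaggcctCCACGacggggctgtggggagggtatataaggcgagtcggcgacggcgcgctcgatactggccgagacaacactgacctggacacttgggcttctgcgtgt
Pdia6, chr12:17266339-17266638, forward strand: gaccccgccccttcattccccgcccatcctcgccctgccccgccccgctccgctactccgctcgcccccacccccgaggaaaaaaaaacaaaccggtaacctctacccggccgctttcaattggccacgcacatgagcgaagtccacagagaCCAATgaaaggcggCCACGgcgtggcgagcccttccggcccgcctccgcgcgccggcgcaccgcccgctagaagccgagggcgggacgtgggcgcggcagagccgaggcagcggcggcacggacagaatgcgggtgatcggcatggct
Dnajc3, chr14:118937682-118937981, forward strand: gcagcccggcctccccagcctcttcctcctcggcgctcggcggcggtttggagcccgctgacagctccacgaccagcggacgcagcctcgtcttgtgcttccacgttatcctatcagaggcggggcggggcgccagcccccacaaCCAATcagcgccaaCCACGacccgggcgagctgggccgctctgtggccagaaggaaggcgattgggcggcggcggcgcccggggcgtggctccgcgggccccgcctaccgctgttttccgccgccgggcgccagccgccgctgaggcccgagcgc
Calr, chr8:84846882-84847181, reverse strand: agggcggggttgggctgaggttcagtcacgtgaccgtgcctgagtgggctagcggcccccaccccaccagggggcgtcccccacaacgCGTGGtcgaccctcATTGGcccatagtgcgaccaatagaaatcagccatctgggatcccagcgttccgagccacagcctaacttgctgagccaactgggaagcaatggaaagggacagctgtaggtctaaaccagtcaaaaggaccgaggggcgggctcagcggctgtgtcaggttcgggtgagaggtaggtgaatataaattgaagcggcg
Hsp90b1, chr10:86705395-86705694, reverse strand: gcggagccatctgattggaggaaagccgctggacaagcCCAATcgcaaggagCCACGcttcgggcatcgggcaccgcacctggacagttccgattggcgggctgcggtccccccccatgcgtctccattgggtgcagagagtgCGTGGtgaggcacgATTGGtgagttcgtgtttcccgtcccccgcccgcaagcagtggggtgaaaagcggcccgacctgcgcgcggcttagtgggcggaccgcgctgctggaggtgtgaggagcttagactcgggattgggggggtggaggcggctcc
The element began 65 bases before the start in Hspa5, 98 in Pdia6, 105 in Dnajc3 and 162 in Calr. Hsp90b1 held 2 matches, the first 212 bases before the start.

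Hspa5 encodes BiP, the main chaperone of the endoplasmic reticulum. It was at 1426, 2089.7 and 579 CPM in old females, 634, 509 and 414 in corylin females and 523, 512 and 583 in young females (-1.40 ± 0.34, edgeR adjusted p = 0.0949, and 0.00377 without old female 3). Old female 3 lay below corylin female 1, so the groups overlapped. Pdia6, a disulfide isomerase, was at 219.8, 363 and 124 CPM in old and 115, 88.9 and 72.7 in corylin females (-1.35 ± 0.29, edgeR adjusted p = 0.0703, and 0.00416 without old female 3). Dnajc3, a cochaperone that also inhibits the kinase PERK, was at 272, 385 and 214 and 156, 157 and 138 CPM (-0.95 ± 0.19, edgeR adjusted p = 0.0679, and 0.00753 without old female 3). The corylin values of Pdia6 and Dnajc3 lay below all old values. Calreticulin (Calr), a lectin chaperone of glycoproteins, was at 1089, 1828 and 723 CPM in old and 636, 592 and 393 in corylin females (-1.17 ± 0.31, edgeR adjusted p = 0.1, and 0.0166 without old female 3). Hsp90b1, the HSP90 of this compartment, was at 861, 1306 and 626 and 553, 554 and 452 CPM (-0.84 ± 0.24, edgeR adjusted p = 0.113, and 0.0177 without old female 3). Sdf2l1, a BiP cofactor whose promoter window lacks these letters, had the largest ratio of the group's named members, at 34, 78.6 and 14 CPM in old and 9.56, 7.84 and 6.13 in corylin females (-2.42 ± 0.51, edgeR adjusted p = 0.0703, and 0.00489 without old female 3). For every one of these genes old female 2 was highest and old female 3 the lowest of the old females.

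The machinery that moves secretory proteins into the endoplasmic reticulum and adds sugars to them showed the same arrangement of libraries. Of 24 genes, all tested, none passed and 17 had an unadjusted p under 0.05 in the lower direction (7.88% of all genes), with a median of -0.56. Without old female 3, 15 of the 24 fell (2.67% of all genes) and the median was -0.80. In the other 5 fits that left out 1 library none fell, and the median was as small as -0.38 without old female 2. Sec61a1, the channel subunit, was at 287, 344 and 140.4 CPM in old and 149, 135 and 116 in corylin females (-0.95 ± 0.25, edgeR adjusted p = 0.0991, and 0.00339 without old female 3). Ssr3, of the translocon-associated complex, was at 307, 440.4 and 193 and 179.7, 189 and 179 CPM (-0.78 ± 0.22, edgeR adjusted p = 0.111), and Rpn1, of the oligosaccharyltransferase, at 129, 178 and 87.4 and 78.5, 79.3 and 73.6 (-0.77 ± 0.20, edgeR adjusted p = 0.098). Ssr3 and Rpn1 did not overlap between groups, and Sec61a1 did.

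The sensors and transcription factors of the unfolded protein and integrated stress responses were less uniform. None of the 18 passed, 8 had an unadjusted p under 0.05 in the lower direction and 1 in the higher, and the median was -0.60. Leaving out old female 3, 5 fell, against 2.67% of all genes. Xbp1 was at 397, 538 and 220.3 CPM in old and 256, 189 and 142 in corylin females (-0.98 ± 0.28, edgeR adjusted p = 0.122), Atf4 at 208, 142 and 138 and 92, 97.6 and 115 (-0.68 ± 0.18, edgeR adjusted p = 0.0989), and Ddit3, which encodes CHOP, at 16.2, 10.5 and 11 and 8.61, 6.17 and 7.48 (-0.76 ± 0.19, edgeR adjusted p = 0.0974). Xbp1 overlapped through old female 3 and corylin female 1, while Atf4 and Ddit3 did not overlap. Heat shock proteins of the cytosol had a median of -0.19, with 3 of 13 at an unadjusted p under 0.05 in the lower direction, Hspa8 among them at 2136, 2129 and 2180.1 and 1563, 1416 and 1414 CPM (-0.55 ± 0.17, edgeR adjusted p = 0.141).

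**Figure D4:**
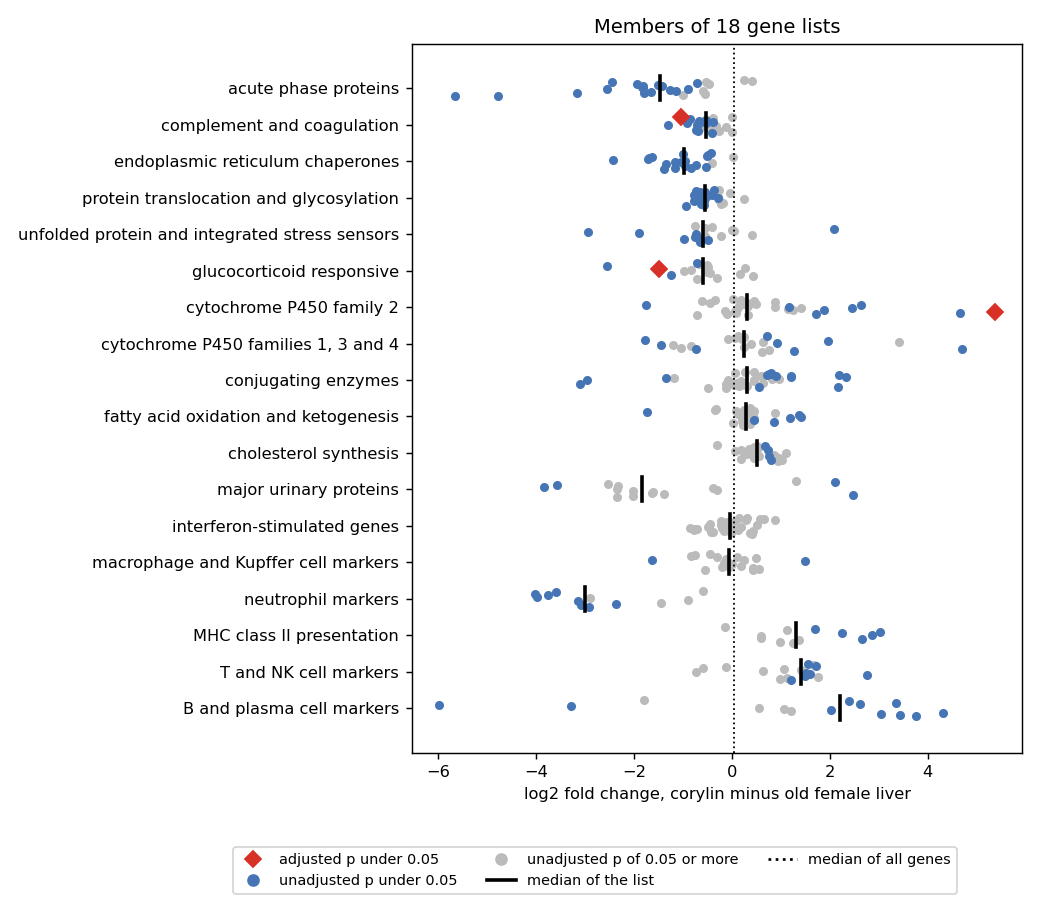
Log2 fold change, corylin minus old female liver, of each tested member of 18 gene lists. Each point is a gene, coloured by its p, and black bars are list medians. Neutrophil markers, major urinary proteins, acute phase proteins and endoplasmic reticulum chaperones have the lowest medians of the 18 (-3.0, -1.83, -1.46 and -0.98), and B and plasma cell, T and NK cell and MHC class II genes the highest (2.21, 1.42 and 1.31).

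Cytochrome P450 genes differed widely from each other and between libraries. Of 34 listed genes of family 2, 32 were tested, 1 rose (Cyp2b13), 7 had an unadjusted p under 0.05 in the higher and 1 in the lower direction, and the median was 0.31. Without old female 3, 5 of the 32 rose, against 0.917% of all genes, and the median was 0.72, while it was 0.18 without old female 1. Summed levels of family 2 overlapped, at 13882, 9249 and 15769 CPM in old and 12981, 19071 and 15674 in corylin females. Cyp2d9, known as male-biased, was at 1.65, 2.65 and 3.99 CPM in old and 5.07, 13.9 and 32.7 in corylin females (2.64 ± 0.62, edgeR adjusted p = 0.0906). Cyp2a22 was at 185, 63.6 and 69.7 and 235, 497 and 315 CPM (1.72 ± 0.46, edgeR adjusted p = 0.103). Cyp2c70, which in mice makes muricholic acids, was the 1 lower member, at 101, 166 and 258 CPM in old and 41.7, 56.2 and 57.2 in corylin females (-1.76 ± 0.40, edgeR adjusted p = 0.0827). None of these 3 overlapped between groups.

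Of the 22 genes of P450 families 1, 3 and 4, none passed, 5 had an unadjusted p under 0.05 in the higher and 3 in the lower direction, and the median was 0.25, with 0.12 without old female 2 and 0.41 without old female 3. Cyp3a11, a broad drug-metabolising enzyme and a target of the receptor PXR, was at 4.64, 8.03 and 123 CPM in old, 76.9, 838 and 2594 in corylin and 1628, 1812 and 1817 in young females (4.69 ± 1.24, edgeR adjusted p = 0.101, and 0.00937 without old female 3). Old female 3 exceeded corylin female 1, which was far below the other corylin females. Cyp4a14, a fatty acid hydroxylase induced through PPARα, was at 422, 1101 and 3067 and 3864, 6646 and 7492 CPM (1.97 ± 0.70, edgeR adjusted p = 0.19), with young females at 9045, 13019.9 and 12084. Cyp1a2 was at 89, 48.2 and 105 and 159, 225 and 199 CPM (1.26 ± 0.39, edgeR adjusted p = 0.145). Cyp3a44, a female-biased member, lay in the other direction, at 553, 821 and 565 and 361, 268 and 81.9 CPM (-1.45 ± 0.56, edgeR adjusted p = 0.228). The summed level of these families was 4524, 6026 and 8048 CPM in old, 8459, 13423 and 15509 in corylin and 17111, 21772 and 20044 in young females.

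Conjugating enzymes attach glucuronic acid, sulfate or glutathione. None of the 37 passed, 11 had an unadjusted p under 0.05 in the higher and 3 in the lower direction, 12 lay wholly above the old values (10% of all genes), and the median was 0.31, with 0.13 without old female 2 and 0.47 without old female 3. Ugt1a9, a glucuronosyltransferase, was at 20.6, 14.4 and 54.7 CPM in old and 86.6, 160.2 and 154 in corylin females (2.16 ± 0.55, edgeR adjusted p = 0.0974, and 0.0177 without old female 3). Gstm1, a glutathione transferase, was at 622, 577 and 1005 and 1186, 1472 and 1457 CPM (0.90 ± 0.24, edgeR adjusted p = 0.101, and 0.0182 without old female 3). The genes of the Ugt1a cluster share their last exons, so their counts are uncertain. Sult1e1, the oestrogen sulfotransferase, ran the other way with overlap, at 9.91, 119 and 38.5 and 0.887, 18.1 and 2.35 CPM (-2.96 ± 1.07, edgeR adjusted p = 0.199). Antioxidant genes driven by NRF2 had a median of 0.02, with 1 of 23 at an unadjusted p under 0.05: Nqo1, a quinone reductase, at 8.51, 9.35 and 12 and 11.8, 20 and 18 CPM (0.74 ± 0.21, edgeR adjusted p = 0.119). Among 15 carboxylesterases, 14 were tested, with a median of 0.26. At an unadjusted p under 0.05, 2 were higher and 3 lower, and the lowest difference in the list was -5.65. Ces2e rose, and Ces1f was at 80.9, 22.1 and 71.5 CPM in old and 245, 306 and 174 in corylin females (2.06 ± 0.54, edgeR adjusted p = 0.101). Ces1c, abundant in plasma, was at 3423, 3220.1 and 2396 and 2311, 1915 and 1626 CPM, in the lower direction (-0.63 ± 0.24, edgeR adjusted p = 0.226).

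Genes of fatty acid oxidation and ketogenesis were higher in corylin females in 27 of 30 cases by sign, none passed, 5 had an unadjusted p under 0.05 in the higher and 1 in the lower direction, and 11 lay wholly above the old values (10% of all genes). The median was 0.29, against 0.03 for all genes, and 0.08 without old female 3. That library had the lowest summed level, 10674 CPM against 21043 and 15288 in the other old females and 21759, 19594 and 17470.3 in corylin females. Ehhadh, the peroxisomal bifunctional enzyme and a PPARα target, was at 723, 633 and 329.6 CPM in old, 1410.3, 1481 and 1612 in corylin and 1824, 2133 and 1664 in young females (1.42 ± 0.32, edgeR adjusted p = 0.0729, and 0.0686 without old female 3). Acadm, the medium-chain acyl-CoA dehydrogenase of mitochondria, was at 264, 280.3 and 386 and 457, 662 and 569 CPM (0.86 ± 0.23, edgeR adjusted p = 0.1). Acot1, which frees fatty acids from coenzyme A, was at 61.5, 29.1 and 46.2 and 121, 122 and 114 CPM (1.38 ± 0.48, edgeR adjusted p = 0.183). Pdk4, which shuts pyruvate out of mitochondria, lay in the other direction, at 127, 64.4 and 33.7 and 14, 10.4 and 43.4 CPM (-1.74 ± 0.57, edgeR adjusted p = 0.158). Ppara itself was at 57.3, 37.8 and 33.9 CPM in old and 58.8, 66.9 and 58.7 in corylin females (0.51 ± 0.18, edgeR adjusted p = 0.187).

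In lipid synthesis, stearoyl-CoA desaturase 1 (Scd1), which makes monounsaturated fatty acids, was at 437, 188 and 799 CPM in old, 1289, 3072 and 2012 in corylin and 2840.2, 3300.3 and 2871 in young females (2.16 ± 0.49, edgeR adjusted p = 0.0799, and 0.0144 without old female 3). Acacb, the acetyl-CoA carboxylase at the mitochondrial surface, was at 148, 145 and 122 and 85.1, 66.9 and 87.9 CPM, in the lower direction (-0.79 ± 0.19, edgeR adjusted p = 0.0906). Over the 30 genes of fatty acid and triglyceride synthesis the median was 0.08, with 5 higher and 2 lower at an unadjusted p under 0.05. Cholesterol synthesis genes lay above 0 in 24 of 25 cases with a median of 0.51, against 0.03 for all genes. The median was 0.19 without old female 3 and 0.92 without corylin female 1. Of these genes, 4 had an unadjusted p under 0.05, but none of the 25 separated the groups. Their summed level was 2603, 2168 and 1626 CPM in old and 1728, 3605 and 3237 in corylin females, with corylin female 1 low.

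Igfbp1, an insulin-suppressed binding protein of insulin-like growth factors, was at 1309, 720.2 and 777 CPM in old, 176, 49.8 and 145 in corylin and 64.2, 96.6 and 103 in young females (-2.92 ± 0.76, edgeR adjusted p = 0.1, and 0.0617 without old female 3). The groups did not overlap. Glucose-6-phosphatase (G6pc), the last step of glucose release, was at 1058, 271 and 703 and 322, 256 and 418 CPM with overlap (-1.03 ± 0.37, edgeR adjusted p = 0.193). In the list of gluconeogenesis and glycolysis, 1 of 22 was higher and 3 lower at an unadjusted p under 0.05, and the median was 0.11. Glucocorticoid-responsive genes had a median of -0.59: of 16, Tat fell and 4, Tat included, had an unadjusted p under 0.05 in the lower direction. Errfi1, an inhibitor of epidermal growth factor receptor signalling, was at 1987, 1722 and 1512 CPM in old and 709, 1089.9 and 1384 in corylin females (-0.71 ± 0.28, edgeR adjusted p = 0.227), and Sgk1, a kinase that corticosteroids induce, at 195, 58.2 and 45 and 39.6, 39.8 and 46.8 with old female 1 far above the rest (-1.24 ± 0.48, edgeR adjusted p = 0.225). Among 20 circadian clock genes the median was 0.14 and 1 had an unadjusted p under 0.05: Nfil3, a repressor of clock output, at 73.8, 33.3 and 42.9 CPM in old and 18.8, 9.77 and 10.4 in corylin females (-1.94 ± 0.41, edgeR adjusted p = 0.0699). The hour of tissue collection is not given in the labels.

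Major urinary proteins, pheromone carriers that male mice secrete in bulk, were highest in old females 1 and 2. Of 18 listed genes, 16 were tested and none passed, with a median of -1.83. Mup17 was at 1442, 1515 and 7.12 CPM in old, 64.6, 182 and 3.06 in corylin and 27.7, 12.3 and 1.76 in young females (-3.57 ± 1.61, edgeR adjusted p = 0.302). Libraries numbered 3 were the lowest of each group. Mup20, known as darcin, lay the other way, at 3.3, 0.97 and 2.66 CPM in old, 10.1, 9.19 and 11 in corylin and 11.5, 22 and 16.6 in young females (2.1 ± 0.51, edgeR adjusted p = 0.097). Mup17 shares 59.4% and Mup20 38.8% of their 100-base stretches with other Mup genes, so single members are uncertain. The summed level was 3375, 4179 and 113 CPM in old, 939.7, 826 and 144 in corylin and 911, 1095 and 833 in young females. Egfr, a growth factor receptor also known as male-biased in mouse liver, was at 337, 507 and 263 CPM in old, 202, 54.2 and 67.4 in corylin and 64.2, 50.1 and 60.1 in young females (-1.77 ± 0.52, edgeR adjusted p = 0.13). The whole list of male-biased liver genes had no net direction. Of 28 listed, 27 were tested, with a median of 0.03, 14 above 0 and 13 below. At an unadjusted p under 0.05, 3 were higher and 2 lower.

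Markers of blood and immune cells differed in direction by cell type. Neutrophil markers were lower in all 12 tested genes of 14 listed, with a median of -3.0. None passed, 8 had an unadjusted p under 0.05 in the lower direction (7.88% of all genes), and 8 had no overlap (8.33% of all genes). S100a8, a calcium-binding protein abundant in neutrophils, was at 7.3, 47.1 and 66.2 CPM in old, 4.69, 5.14 and 5.98 in corylin and 2.85, 1.14 and 0.819 in young females (-2.93 ± 0.97, edgeR adjusted p = 0.164). Elane, neutrophil elastase, made in immature cells, was at 0.889, 4.85 and 8.6 and 0.0633, 0.579 and 0.214 CPM (-4.01 ± 1.01, edgeR adjusted p = 0.0974), and Ngp, a granule protein, at 3.24, 25.1 and 37 and 1.27, 1.41 and 1.42 (-3.98 ± 1.26, edgeR adjusted p = 0.151). Old female 1 was close to the corylin values and old females 2 and 3 far above. The summed level of the list was 43.6, 203 and 279 CPM in old, 27.2, 33.6 and 36.2 in corylin and 9.36, 6.36 and 5.29 in young females. Over the fits that left out 1 library its median ran from -3.53 to -2.49, and none of its genes passed in any of them. The part of blood or tissue neutrophils in the acute phase values was not tested.

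B cell genes were high in corylin females 1 and 3. Of 15 B and plasma cell markers, 14 were tested, none passed, 8 had an unadjusted p under 0.05 in the higher and 2 in the lower direction, and the median was 2.21, with 1.24 without corylin female 3 and 2.70 without corylin female 2. Ms4a1, which encodes the B cell surface protein CD20, was at 3.24, 0.176 and 3.75 CPM in old, 26.7, 1.29 and 118 in corylin and 2.56, 1.29 and 0.315 in young females (4.31 ± 1.22, edgeR adjusted p = 0.121). Corylin female 2 lay within the old range. Ighg2c, from antibody-secreting cells, ran the other way, as described above, and was called lower without old female 3 (edgeR adjusted p = 0.00467). T and NK cell markers had a median of 1.42, and of 0.83 without corylin female 3, with 17 of 18 tested, none passed, and 7 at an unadjusted p under 0.05 in the higher direction and none in the lower. Cd8a, of cytotoxic T cells, was at 3.43, 2.56 and 2.89 CPM in old, 11, 8.36 and 5.7 in corylin and 0.366, 0.303 and 0.504 in young females (1.49 ± 0.60, edgeR adjusted p = 0.241). Ccl5, a chemokine of T and NK cells, was at 2.79, 4.59 and 6.96 and 18.4, 6.56 and 22.2 CPM with overlap (1.72 ± 0.63, edgeR adjusted p = 0.206). The summed level of the T and NK list was 33, 29.9 and 41.3 CPM in old and 95.1, 57.6 and 92 in corylin females.

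MHC class II genes, which present peptides to helper T cells, had a median of 1.31. None of the 12 passed, 5 had an unadjusted p under 0.05 in the higher direction, and 6 lay wholly above the old values (10% of all genes). H2-Aa was at 104, 158 and 76.9 CPM in old, 251, 234 and 316 in corylin and 54.5, 27.7 and 31.9 in young females (1.24 ± 0.69, edgeR adjusted p = 0.41). Ciita, the master regulator of the class, was at 2.73, 4.67 and 2.5 and 10.9, 5.72 and 15.2 CPM (1.69 ± 0.59, edgeR adjusted p = 0.184), and H2-Ob, restricted largely to B cells, at 2.6, 0.529 and 2.97 and 14.1, 2.64 and 33.6 with overlap (3.02 ± 0.84, edgeR adjusted p = 0.115). The summed class II level was 562, 889 and 549 CPM in old, 1311, 1153 and 1599 in corylin and 265, 148 and 149 in young females, and the old and corylin groups did not overlap. Summed over the list, B and plasma cell markers were at 338, 522 and 545 CPM in old and 616, 414 and 1608 in corylin females, and the part of B cells in the class II values was not tested. Macrophage and Kupffer cell markers had a median of -0.07, with 1 of 22 higher and 1 lower at an unadjusted p under 0.05 and a summed level of 2074, 2569 and 3261 CPM in old and 2152, 2409.6 and 2773 in corylin females. Interferon-stimulated genes had a median of -0.04, and none of 32 had an unadjusted p under 0.05.

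**Figure D5:**
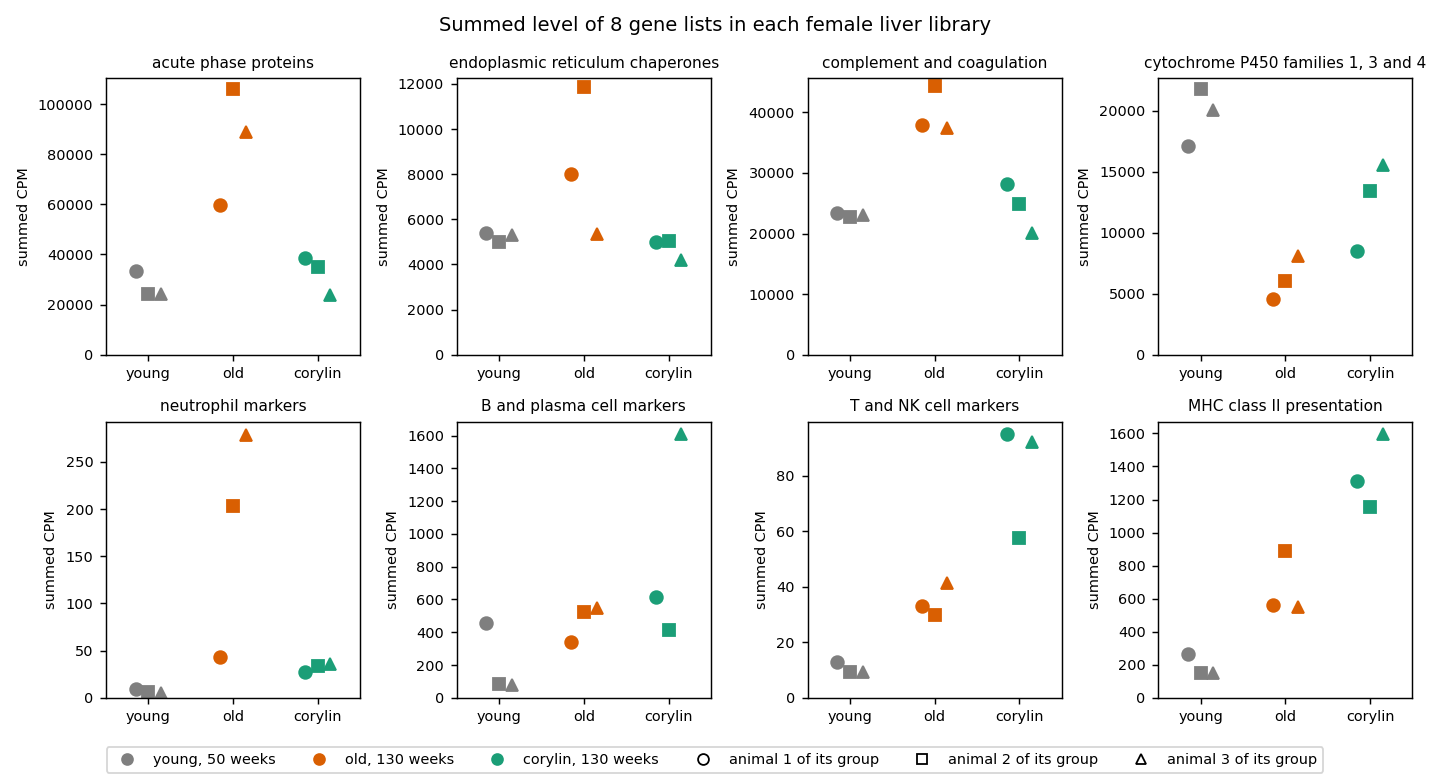
Summed CPM of 8 gene lists in each female liver library on linear axes from 0, with groups along the horizontal axis and marker shapes for replicates. Acute phase proteins are lower in all 3 corylin than in all 3 old females, old female 3 is near the corylin females for endoplasmic reticulum chaperones, and neutrophil markers and B cell markers spread widely within groups.

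No gene of the lists described next passed with all libraries. Among 13 mitochondrially encoded genes the median was 0.31 and 3 were higher at an unadjusted p under 0.05 (7.88% of all genes). ATP6 (a subunit of ATP synthase) was among them at 30.9, 24.7 and 42.9 CPM in old and 43.3, 221 and 100 in corylin females, corylin female 2 highest (1.88 ± 0.49, edgeR adjusted p = 0.1). The 13 genes summed to 37507, 37321 and 35154 CPM in old females, so ATP6 was a very small part of them. Why its count was so low was not tested, so its value is uncertain. Nuclear genes of the respiratory chain had a median of 0.18, with none of 28 at an unadjusted p under 0.05. Bile acid synthesis genes had a median of 0.09 with none of 15, and extracellular matrix genes a median of 0.32 (0.09 without old female 2 and 0.66 without old female 1) with 2 of 25, both lower. Stellate markers had a median of 0.29 and endothelial markers of -0.04, each with 1 of 12 at an unadjusted p under 0.05. The stellate 1 was Lrat, which stores retinol as esters, at 10, 8.03 and 12.3 CPM in old and 18, 23.1 and 20.2 in corylin females (1.01 ± 0.24, edgeR adjusted p = 0.0863). The endothelial 1 was Vwf, von Willebrand factor, at 47.6, 58.2 and 13.6 and 9.31, 10.5 and 10.8 (-1.96 ± 0.43, edgeR adjusted p = 0.0718, and 0.00241 without old female 3). Genes that respond to handling stress had a median of -0.54 (-0.20 without old female 1), with 5 of 17 lower at an unadjusted p under 0.05 (7.88% of all genes). Without old female 3, 3 of the 17 fell, against 2.67% of all genes. The summed level of the list was 941, 519.9 and 576 CPM in old and 405, 349.8 and 821 in corylin females. Ier3, an early response gene of that list, was at 28.2, 14.2 and 7.51 and 4.5, 3.28 and 3.42 CPM (-2.16 ± 0.46, edgeR adjusted p = 0.0699).

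The young females put these levels beside those of younger adults. Old against young females shares the 3 old livers with the corylin comparison, and corylin against young shares the 3 corylin livers, so the comparisons are not independent of each other. Old against young, 840 genes were higher (5.54%) and 565 lower (3.73%), and corylin against young 639 genes passed (4.22%), 532 higher (3.51%) and 107 lower (0.706%). Both counts depended on single libraries: the first lay at 703 and 305 without old female 1 and 2, at 353, 256 and 287 without young female 1, 2 and 3, and at 1533 without old female 3. The second lay at 2 and 29 without corylin female 1 and 3, at 79, 3 and 3 without young female 1, 2 and 3, and at 675 without corylin female 2. Fgb was 1.38 ± 0.36 (log2) in old against young (edgeR adjusted p = 0.0304) and -0.46 ± 0.35 in corylin against young (0.469). Hspa5 was 1.34 ± 0.34 in old against young (edgeR adjusted p = 0.0281) and -0.06 ± 0.33 in corylin against young (0.939). Kng1 was 1.13 ± 0.17 in old against young (edgeR adjusted p = 0.00471) and 0.09 ± 0.17 in corylin against young (0.81). Cyp2b13 was -7.30 ± 1.03 in old against young (edgeR adjusted p = 0.00387) and -1.93 ± 0.78 in corylin against young (0.158). For the T cell gene Cd8a the order was another: it was 2.88 ± 0.73 in old against young (edgeR adjusted p = 0.0288) and 4.37 ± 0.73 in corylin against young (0.026). Of 17 T and NK markers, 3 were higher in old than in young females and 10 in corylin than in young females, and of 12 class II genes, 1 and 8. Of 20 chaperones, 12 were higher in old than in young females and none in corylin than in young females. Of 24 acute phase genes the counts were 14 and 1.

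Whether the effect of corylin on liver differed between females and males was tested as an interaction, with 2 corylin and 3 old male livers. No gene passed in edgeR (0% of 15158), 1033 had an unadjusted p under 0.05 (6.81%), DESeq2 called 30 and limma voom none (885 at an unadjusted p under 0.05). The smallest p-values belonged to Slc34a2, a phosphate transporter (5.50 ± 0.92, female minus male effect), Chka, a choline kinase (1.39 ± 0.25), Per3 of the clock (-3.49 ± 0.64), Ehhadh (2.57 ± 0.48) and Pxmp4 of peroxisomes (1.10 ± 0.21), all with an adjusted p of 0.244 in edgeR. Ehhadh was at 1730.5, 1406 and 1867 CPM in old males and 1053 and 447 in corylin males 2 and 3.

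Against kidney of the same females, no gene differed in its corylin effect in edgeR (0% of 17693, with 1084 or 6.13% at an unadjusted p under 0.05), nor against quadriceps (0%, with 2120 or 12%), with the animal as a block. With limma voom both counts were also 0 (1273 and 2092 at an unadjusted p under 0.05). The kidney effect itself had 10 genes past the threshold (0.0582% of 17174) and the quadriceps effect none of 14173. The smallest p-values of the liver and kidney difference were those of Ubd, a ubiquitin-like protein (5.06, log2, liver minus kidney effect), and Fam222a (-2.80), both with an adjusted p of 0.301 in edgeR. For quadriceps they were those of Serpinb8 (3.45, liver minus quadriceps effect, edgeR adjusted p = 0.0895) and Prps2, a synthetase of nucleotide precursors (1.62, edgeR adjusted p = 0.0957). Hspa5 in kidney had a corylin effect of -0.30 ± 0.16 (edgeR adjusted p = 0.466).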

How the data were processed

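Liver RNA of C57BL/6J females was compared between 3 libraries of the corylin diet and 3 of the control diet. Per the submitters' processing notes, fastp 0.20.0, FastQC 0.11.9, HISAT2 2.1.0, featureCounts 2.0.1 and GRCm38 were used. The sources used here give neither the annotation release nor the strand setting, nor how reads that map to several genes were treated. The authors deposited raw counts per gene for 55471 genes, of which 27268 had at least 1 count over the 17 liver libraries, and next to them TPM values, which entered no test. They also deposited log2 fold changes and p-values of their own comparisons, used here only for counts of their calls.

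Counts were fitted with edgeR 4.0.16 in R 4.3.3 (quasi-likelihood F test, robust, TMM scaling) in 1 model over the 6 liver groups, so that all groups share the estimate of spread. Genes were kept with filterByExpr (minimum count 10, minimum total 15). P-values were adjusted by Benjamini-Hochberg with a threshold of 0.05. CPM has no pseudocount, and principal components used log2 CPM with a prior count of 2. Each SE is the log2 change divided by the root of its F statistic. Alternatives were DESeq2 1.42.0, limma voom 3.58.1, other filters, scalings and sample sets, and leaving out each library in turn. The difference between sexes was an interaction in the same model, and the differences between tissues came from 1 model with the animal as a block. The code was tested on simulated counts.

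Genes named are every gene past the threshold that has an assigned name, the 10 with the next smallest p, up to 5 members of each list by smallest p with up to 2 of its defining members, paralogs, checks of the labels, and the genes of smallest p in each difference test. The comparison, the gene lists and these rules were chosen with earlier results of these data known, so no list is independent evidence. Shared 100-base stretches between paralogs were counted in GENCODE transcripts. The first male corylin library was not analysed here, and some members of the lists are not reported here by name.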

Additional observations from a re-analysis of the deposited data

How the results depend on the processing

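The count of 23 genes moved to 568 with DESeq2, 12 with limma voom, 53 with no filter on low counts, 146 with the library letter in the model, 0 with only the 6 libraries compared (1906 at an unadjusted p under 0.05) and 1 with only female livers. Leaving out 1 library gave 0 to 543. Corylin against young females (639) became 1600 with DESeq2, 50 with voom, 282 with no filter and 2 to 675 without 1 library. Old against young (1405) became 2405, 852 and 793, and 256 to 1533. The sex difference (0) became 30 with DESeq2, 1 with no filter and 0 to 549, the highest without male corylin replicate 2. The liver and kidney difference (0) ran from 0 to 23 and the liver and quadriceps difference (0) from 0 to 12, both highest without old female 3, and the latter was 1 with no animal block. The cause of these moves was not tested. The smaller sample sets held fewer libraries to estimate the spread and also fewer tested genes. These were 13956 with only the 6 libraries and 14161 with only female livers, against 15158. With the replicate block, 142 of 15158 genes passed, 57 higher and 85 lower, all 23 among them. Lower were 6 of 24 acute phase proteins, 6 of 20 endoplasmic reticulum chaperones and 3 of 23 complement and coagulation genes. Deviations of same-numbered libraries correlated at 0.302, 0.057 and 0.3, and old female 2 correlated best with corylin female 1 (0.139), so the numbers were not taken to pair the animals. Over the single genes named and these settings, 1463 values kept their direction and side of the threshold, 154 were no longer past it, 185 came to pass it and 3 changed sign. Those 3 were Cyp2b10, which did not pass, at -0.54 to 1.35 over the fits without 1 library.

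Limits: 3 libraries a group, 1 liver each, with no label for cage, litter or collection time. Genes at a few CPM, such as Olig1 and Fam241b, rest on few counts.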
